A study of Drosophila melanogaster with 3 samples.

Results

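The binding sites described here are the 2268 peaks that lay in dense clusters, out of 7248 reproducible peaks of the protein CG10669 in whole Drosophila melanogaster prepupae (31.3%). The data came from chromatin immunoprecipitation with sequencing (ChIP-seq), in which an antibody recovers the DNA fragments that a protein sits on. A peak was a member if at least 4 other reproducible summits lay within 10 kb on either side of its own summit, the position of highest signal. Members at most 10 kb apart were joined, which gave 392 loci, and the remaining 4980 reproducible peaks are called other peaks. Members were thus chosen by the measured number of neighbouring summits in this list, so the crowding itself is a description and carries no test.

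All samples belonged to a single group of 3 biological replicates, and no second condition was available for comparison. The flies stably carried CG10669 with a green fluorescent protein (GFP) at its C-terminus, were of both sexes and were taken whole as prepupae, the stage at the onset of metamorphosis. The antibody field names CG10669 although the line carries a GFP fusion, so the labels do not settle whether untagged protein was recovered as well. The labels also describe the libraries as input controls, which goes against their assay and antibody fields, and they give an age of 24 days, which does not match a prepupa. Whole animals mix many tissues, so a locus cannot be assigned to a cell type, and binding in few cells cannot be told apart from weak binding in many. The files give no read totals, so the depth was unknown.

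As background, gene regulation in flies often runs through several DNA elements around 1 gene, spread over its introns and the DNA next to it. Enhancers are such elements that act at a distance from the transcription start site (TSS), while promoters lie at the TSS itself. Genes that steer development, such as those for signalling components and transcription factors, are known for long introns and many enhancers. Regions where sites of a transcription factor crowd together have been described in fly embryos for many factors.

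The strongest members of large loci showed what the bound DNA looked like. The 200 bp windows below are centred on the strongest summit of the 5 loci with the most members, all without an annotated exon. Capitals mark matches to any of 15 short words searched on both strands, named further on. Sequences are the plus strand of the RefSeq Release 6 assembly (dm6).
Locus of hng3, chr3L:746443-746642: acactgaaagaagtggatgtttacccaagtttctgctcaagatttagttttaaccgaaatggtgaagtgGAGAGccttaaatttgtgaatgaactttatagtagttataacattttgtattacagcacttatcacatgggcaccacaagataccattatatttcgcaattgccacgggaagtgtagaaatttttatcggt
Locus of CG5151, chr3L:16175754-16175953: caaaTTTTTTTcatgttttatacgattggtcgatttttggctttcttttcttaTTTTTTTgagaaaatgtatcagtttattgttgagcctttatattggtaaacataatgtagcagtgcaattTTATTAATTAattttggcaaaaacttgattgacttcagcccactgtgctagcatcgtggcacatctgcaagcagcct
Locus of E2f1, chr3R:21651128-21651327: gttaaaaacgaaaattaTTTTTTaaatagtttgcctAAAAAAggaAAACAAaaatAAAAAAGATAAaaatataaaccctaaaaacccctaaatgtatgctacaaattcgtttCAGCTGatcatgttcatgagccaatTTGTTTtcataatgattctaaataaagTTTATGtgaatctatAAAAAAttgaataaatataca
Locus of tara, chr3R:16224435-16224634: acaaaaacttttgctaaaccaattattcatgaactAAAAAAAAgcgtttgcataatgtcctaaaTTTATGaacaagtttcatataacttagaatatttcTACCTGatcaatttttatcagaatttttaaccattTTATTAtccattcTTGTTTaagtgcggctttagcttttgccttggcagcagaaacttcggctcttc
Locus of Tet, chr3L:2824121-2824320: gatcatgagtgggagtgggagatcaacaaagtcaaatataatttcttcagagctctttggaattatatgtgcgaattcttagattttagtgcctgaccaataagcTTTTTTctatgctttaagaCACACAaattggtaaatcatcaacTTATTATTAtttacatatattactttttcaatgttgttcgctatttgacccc
All 5 windows were poor in G and C, with GC contents of 35.5%, 32.5%, 22.5%, 30% and 32% in that order. Runs of A or T (AAAAAA on either strand) stood in 4 of them, while the window of the hng3 locus held only the word GAGAG. Over all reproducible peaks the mean GC content was 35.3%, and 49.9% held AAAAAA, so neither trait was particular to these loci.

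Crowding of this kind was found in each replicate by itself. For every replicate, the 7248 candidate peaks of highest signal formed a list as long as the reproducible list, and the same rule was applied to it. It was met by 2282, 2163 and 2211 peaks in replicates 1, 2 and 3, a share of 30.6% ± 0.826 (SD, n = 3). In the 7248 pooled candidates of lowest signal, 1279 peaks met the rule (17.6%). The largest number of other summits within 10 kb was 12. At the threshold, 728 peaks had exactly 4 other summits and 1029 had exactly 3, while 1157 peaks (15.96%) had none. Values just inside and just outside it were close: 22.8% and 24.1% lay at promoters, 71.6% and 67.5% were found in all 3 replicate lists, and the median pooled signal was 4.57 and 4.32 times that of the median candidate.

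**Figure D1:**
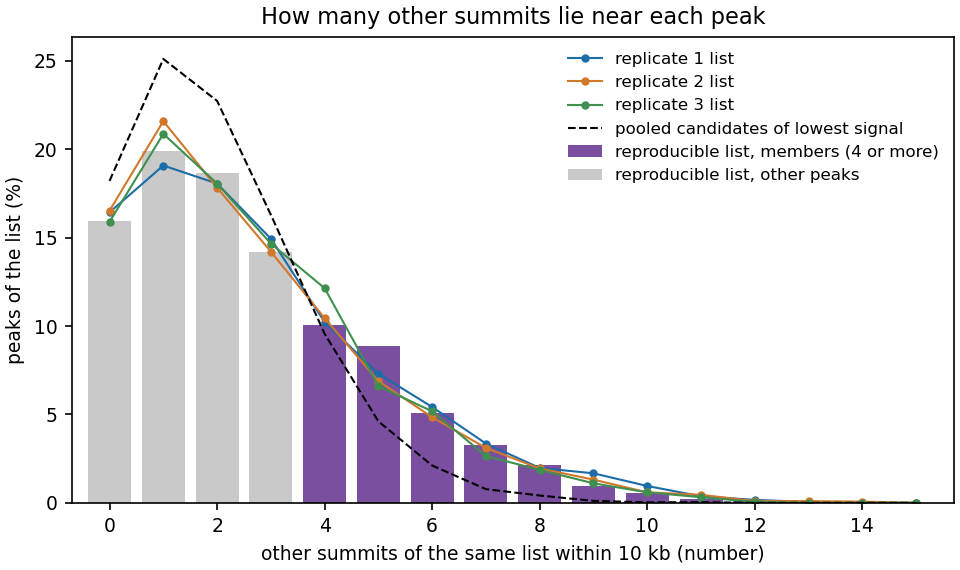
Share of the peaks of a list (vertical axis, %) against the number of other summits of the same list within 10 kb (horizontal axis). Bars show the reproducible list (members purple, other peaks grey), coloured lines the 3 replicate lists and the dashed line the pooled candidates of lowest signal. The replicate lines follow the bars, with 30.6% ± 0.826 of peaks at 4 or more, while the dashed line is the lowest line from 4 on and holds 17.6% at 4 or more.

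Members were found again in the separate replicates. A peak counted as found if a summit of the replicate's list lay within 200 bp. Of the 2268 members, 1664 were found in all 3 lists (73.4%), 418 in 2, 175 in 1 and 11 in none, beside 66.7% found in all 3 among all reproducible peaks and 63.7% among other peaks. Within 10 groups of the list ordered by pooled signal the mean difference was 4.26 percentage points, against 9.63 without that grouping. Signal still varied within each group. The share found in all 3 lists fell with signal. In groups 1 to 5, counted from the strongest, it was 94.4% to 100% of members. In groups 8, 9 and 10 it was 40.4%, 17.4% and 3.72% of members, against 34.4%, 10.3% and 2.61% of other peaks. In the single replicates 90.1%, 86.6% and 88.1% of members were found (88.2% ± 1.77, SD, n = 3), against 83.1% ± 1.74 of other peaks (SD, n = 3). At least 4 neighbours were again present around 84.6% ± 2.14 of members in the replicate lists, and around 5.76% ± 0.132 of other peaks (SD, n = 3 each). The reproducible list was called on the pooled replicates, so these shares describe it and carry no test.

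A comparison free of that overlap chose clusters in the list of a single replicate and measured them in the other two. Of cluster peaks, 80.3% ± 1.02 had at least 4 neighbours in the held-out replicates, against 8.06% ± 0.421 of the other peaks of the same list (SD, n = 3 choosing replicates). The difference was 71.7, 73.0 and 71.9 percentage points for the 3 choosing replicates, with a mean of 72.2 ± 0.735 (SD; two-sided exact sign-flip permutation test, p = 0.25). Cluster peaks also had the higher held-out signal in 3 of 3 replicates. The median signal relative to the median candidate was 3.73, 4.70 and 4.49 in cluster peaks, against 3.30, 4.13 and 3.78 in other peaks. On the log2 scale the difference was 0.20 ± 0.04 (SD, n = 3; exact sign-flip permutation test, p = 0.25). Both differences were larger than their spread between replicates, but 3 replicates cannot give a p below 0.25. Each pair of lists was used in both directions, so the 3 differences were not independent and their SD may understate the uncertainty. The replicates shared 1 control file, and the part of that file in the repeated positions was not tested.

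Members and other peaks differed in where they lay in genes. In the reproducible list, 399 members had their summit within 500 bp of a TSS of a protein-coding gene (17.6%, 95% Wilson interval 16.1 to 19.2), against 1564 other peaks (31.4%, 30.1 to 32.7) and 27.1% of all reproducible peaks. Introns held 1202 members (53.0%) and 45.8% of other peaks. Intergenic DNA held 567 members (25%) and 19.4% of other peaks, and exons outside promoters held 100 members (4.41%) and 3.35% of other peaks. More than 5 kb from any annotated TSS lay 619 members (27.3%) and 24.9% of other peaks, with 25.6% in all reproducible peaks. The median distance to a TSS was 2204 bp for members and 1301 bp for other peaks. Peaks are not biological replicates, and the intervals cover counting error only.

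The same contrast was computed in each replicate's own list. The rule did not use the annotation, but both read the same summit positions. Many summits in a stretch with few TSSs cannot all lie at promoters, so part of a lower share may be built in. That part was not tested. In the reproducible list, 37.6% of peaks with no other summit lay at promoters, 24.1% with exactly 3 and 22.8% with exactly 4. Cluster peaks lay at promoters in 17.2%, 19.0% and 19.0% of cases in replicates 1, 2 and 3, against 31.1%, 35.5% and 34.8% of other peaks. The groups did not overlap, and the difference was -15.4 ± 1.31 percentage points (SD, n = 3; exact sign-flip permutation test, p = 0.25). Introns held 52.9%, 54.5% and 52.6% of cluster peaks, against 45.2%, 42.9% and 43.5% of other peaks, a difference of 9.40 ± 1.95 points (SD, n = 3; exact permutation p = 0.25). For summits over 5 kb from any TSS the difference was small, at 2.80 ± 0.797 points (SD, n = 3; exact permutation p = 0.25), and it was -2.78 points when the window of the rule was 5 kb instead of 10 kb.

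**Figure D2:**
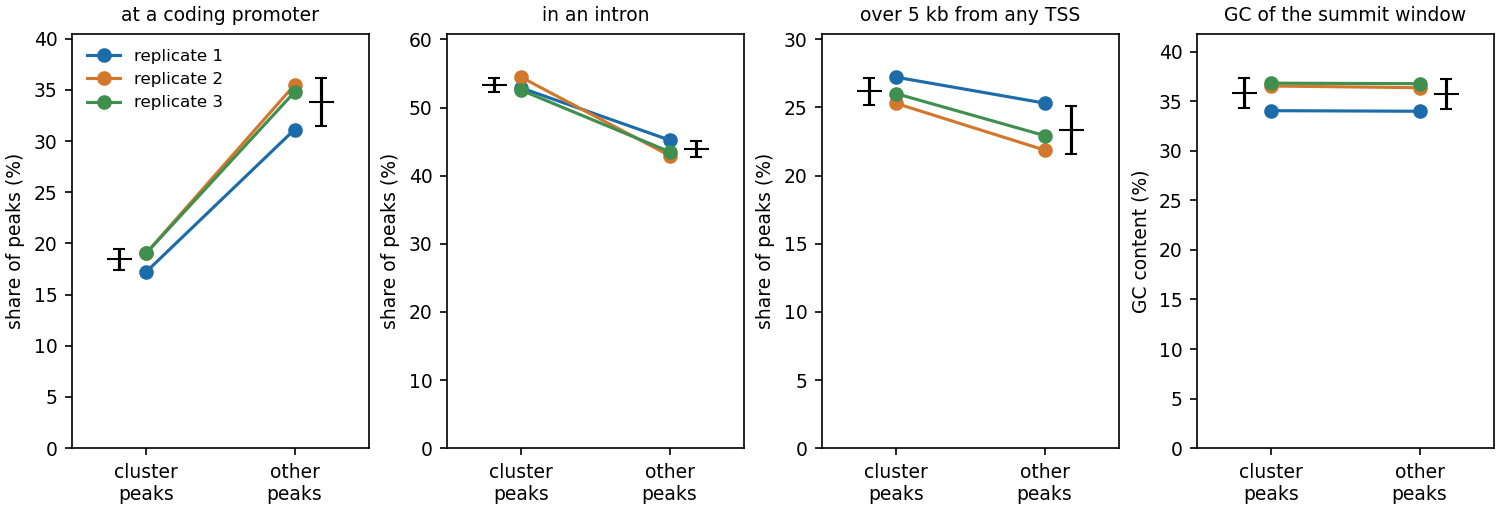
Shares of cluster peaks (left in each panel) and other peaks (right) at coding promoters, in introns and over 5 kb from any TSS, and the mean GC content of the summit window, all in %. Coloured points joined by lines are the 3 replicate lists and black marks are means ± SD. The promoter lines rise to the other peaks (18.4% ± 1.05 of cluster peaks, 33.8% ± 2.35 of other peaks), the intron lines fall, and the GC lines are nearly level.

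Signal and promoter position went together in other peaks more than in members. Among the 725 reproducible peaks of highest signal, 267 were members (36.8%), and 25.8% of these lay at promoters against 55.0% of the other peaks. Among the 725 of lowest signal, 188 were members (25.9%), with 22.3% at promoters against 25.1% of the other peaks. In the replicate lists, the 725 strongest peaks held 263, 264 and 279 cluster peaks. Of these, 26.6%, 25.4% and 22.2% lay at promoters, against 56.9%, 55.5% and 50.7% of the other strong peaks, a difference of -29.6 ± 1.03 points (SD, n = 3; exact sign-flip permutation test, p = 0.25). This contrast was chosen after its values in the reproducible list had been seen. Promoter members had a median signal 1.06, 0.978 and 0.993 times that of the members elsewhere in replicates 1, 2 and 3. For other peaks the same ratio was 1.52, 1.26 and 1.19.

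**Figure D3:**
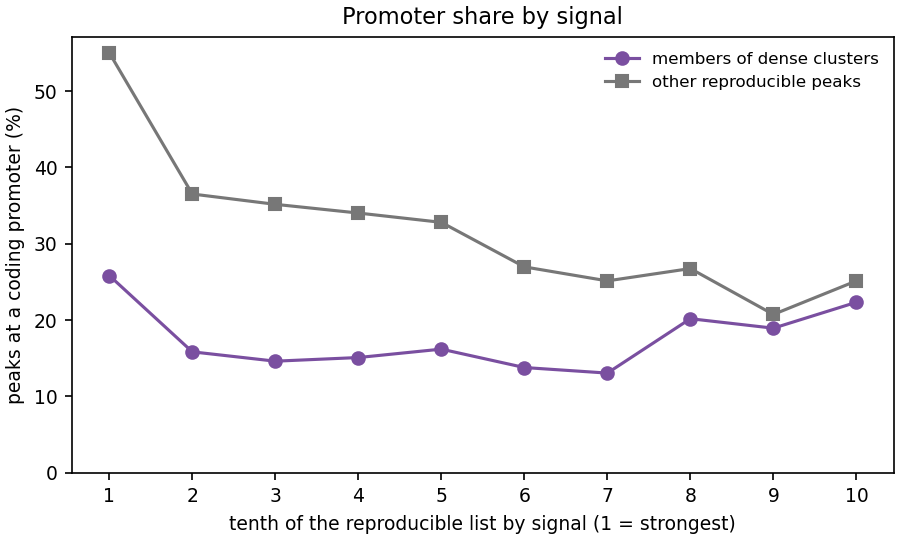
Share of peaks at a coding promoter (vertical axis, %) in 10 groups of the reproducible list of about 725 peaks each, ordered by signal from the strongest (left) to the weakest (right). Purple circles are members and grey squares other peaks. The strongest group holds 25.8% promoter peaks among members and 55.0% among other peaks, and the lines come close in the weakest groups.

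Loci ranged from isolated members to long stretches. The median locus held 5 members and spanned 9018 bp between its outermost summits, and the 392 loci covered 4.15 Mb, or 3.10% of the genome. A single member made up 48 loci, 257 loci held at least 5 members, and 49 held at least 10 members, together 675 members (29.8%). Neighbouring members of a locus lay a median of 1590.5 bp apart, with quartiles of 819 and 2987 bp, and 165 of 1876 gaps (8.80%) were under 500 bp. For 91 members the deposited interval was shared with another member, so some of the closest summits belong to 1 peak interval.

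Loci lay inside and outside gene bodies. In 174 of the 392 loci every member lay inside the gene that named the locus. Among the 257 loci with at least 5 members, this held for 94. The name goes to the coding gene that holds most summits, so part of this agreement is built in. Exactly 1 protein-coding gene overlapped 222 loci, and none overlapped 64. No member was at a coding promoter in 191 loci, and exactly 1 was in 95. The strongest member lay at a promoter in 88 loci (22.4%). Outside any coding gene body lay 805 members (35.5%). Not every locus held peaks that met the rule in each replicate. At least 1 peak of the replicate's own list met the rule inside the locus in all 3 replicates for 248 loci (63.3%), in 2 replicates for 75, in 1 for 53 and in none for 16. All 49 loci with at least 10 members met it in all 3. A single such peak was enough, so a larger locus meets this condition more easily. The loci also came from the pooled replicates, so these counts describe them and carry no test.

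Members of a locus differed widely in signal. Over the 257 loci with at least 5 members, 18.8%, 18.6% and 16.3% of the variance of log2 signal lay between loci in replicates 1, 2 and 3 (17.9% ± 1.36, SD, n = 3). The number of loci alone accounts for 13.2%, 13.1% and 13.1%, so most of the spread in signal was among members of the same locus. In these loci the strongest member had a median of 5.68 times the pooled signal of the weakest, and up to 39.5 times. The same member was the strongest in all 3 replicates in 223 of the 344 loci with several members (64.8%).

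The longest locus lay on 3L at 724641 to 824594 (dm6) and held 48 members over 99953 bp. It overlapped hng3, CG13898 and emc, which encodes a helix-loop-helix protein that blocks its partners from binding DNA. It is named after hng3, whose body held 10 of the summits, while 38 lay in no coding gene. The replicate lists had 46, 48 and 46 summits there. Its strongest member by pooled signal, in hng3 and 2857 bp from a TSS of emc, had a relative signal (signal over the median candidate of the same list) of 16.6, 14.4 and 14.8 in replicates 1, 2 and 3. It led in replicate 2 only. In replicate 1 the member 462 bp from a TSS of hng3 was higher, with 19.4, 8.51 and 11.96 in the 3 replicates. In replicate 3 the members 1155 and 9394 bp from a TSS of CG13898 were higher, with 13.4, 12.8 and 17.2 at the nearer and 8.46, 9.43 and 14.9 at the farther. The median member of the locus reached 3.73, averaged over replicates.

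The next loci differed in how well the replicates matched. The locus of CG5151 on 3L (16158000 to 16218152) held 26 members, of which 21 lay in no coding gene, and the replicate lists had 28, 22 and 26 summits there. Its strongest member had relative signals of 12.6, 6.91 and 5.77, so replicate 1 stood above the other two. The same held at E2f1, a transcription factor gene of the cell cycle, where 24 members on 3R (21589938 to 21657106) also covered InR, the insulin receptor gene. Here 12 summits lay in E2f1 and 11 in InR, with mir-11 and mir-998 inside the locus. The strongest member had 19.97, 6.47 and 7.13, and the replicate lists had 27, 23 and 21 summits. When peaks had to be found in a given pair of replicates, 9 to 13 members were left there and 11 to 17 at CG5151.

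At tara, a nuclear regulator named with the Trithorax group, 23 members spanned 3R 16205504 to 16250645 with 11 in the gene and 12 in no coding gene. The replicate lists had 25, 23 and 21 summits. Its strongest pooled member had relative signals of 24.3, 19.5 and 19.5, but each replicate was higher still at another member (29.0, 19.6 and 26.3). Tet, the fly gene of the TET family of dioxygenases that act on methylated bases, held 21 members on 3L (2821378 to 2873308), 20 of them in introns. Its strongest member was the same in all 3 replicates, at 28.0, 22.2 and 22.9. Another locus of 6 members lies in the same gene, whose body held 27 members, more than any other coding gene. Around heca, a gene active in imaginal cells, 20 members spanned 3R 30255587 to 30293680, 14 of them in no coding gene, and the strongest had 22.8, 21.7 and 22.4.

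**Figure D4:**
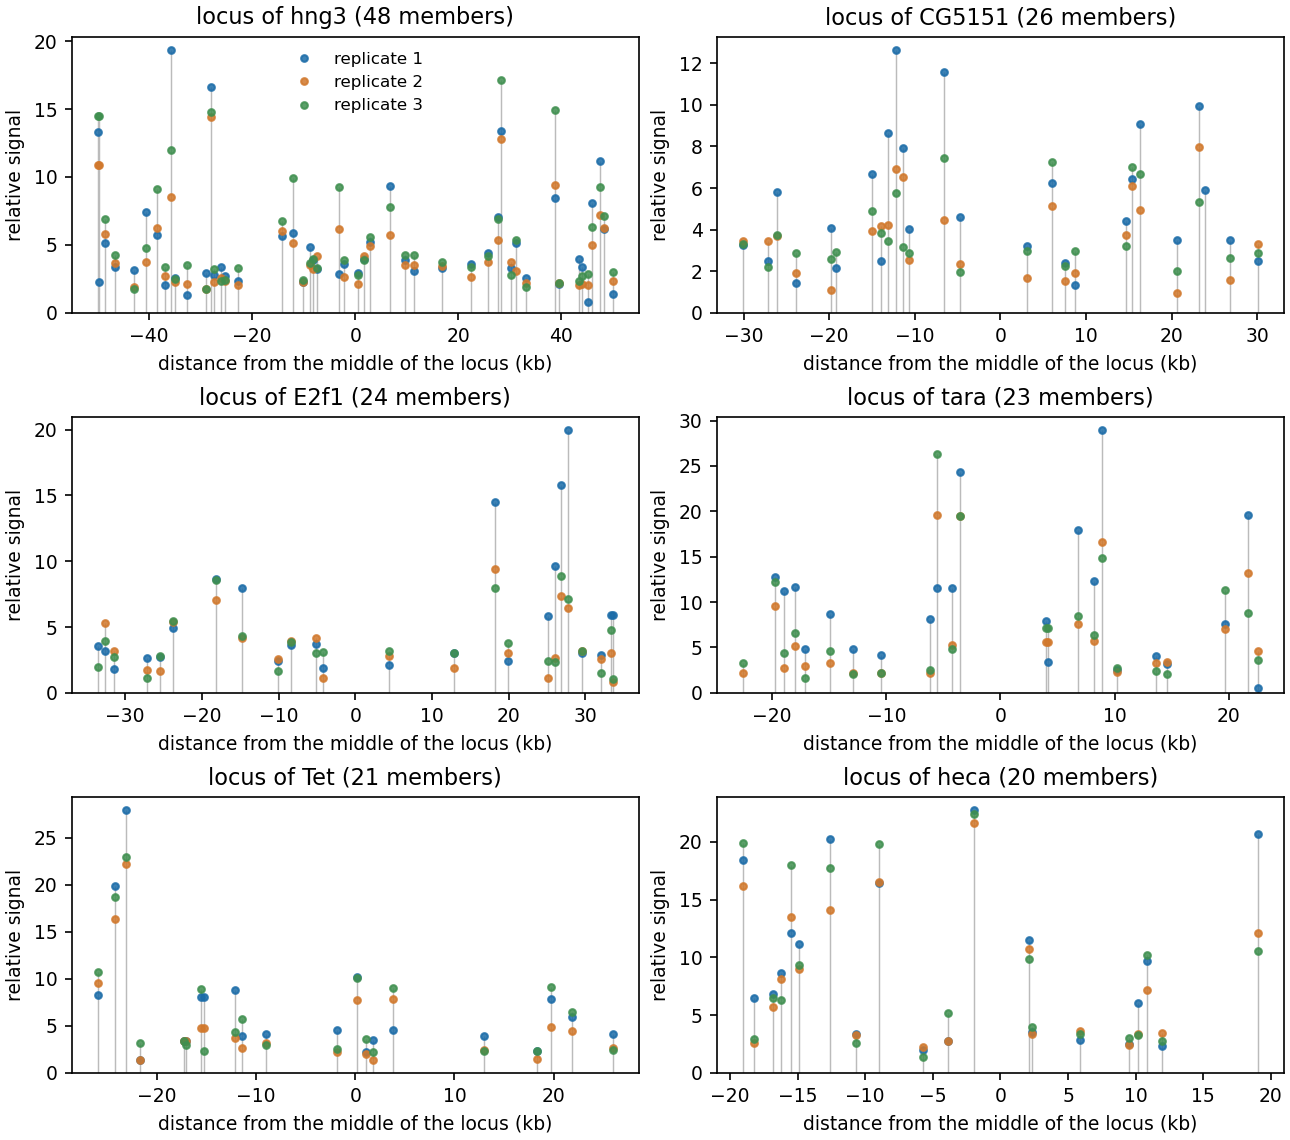
Relative signal of each member (vertical axis, signal over the median candidate of the same replicate's list) against its distance from the middle of the locus (horizontal axis, kb) in the 6 loci with the most members. Colours are replicates, grey lines join a member's points to the axis, and a member has no point where the replicate had no candidate summit within 200 bp. The strongest member is the same in all 3 replicates at Tet and heca, and replicate 1 stands above the others on the right of the E2f1 locus.

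The other 9 of the 15 largest loci held 14 to 17 members. At aop, which encodes an ETS-family repressor, 17 members spanned 2L 2161950 to 2203195. The strongest of them lay outside aop, 3763 bp from the TSS of CG31668, with relative signals of 40.4, 36.4 and 39.1. At glec, a carbohydrate-binding protein gene, 15 of 17 members lay between genes, in a stretch with 4 gustatory receptor genes (Gr93a to Gr93d). The locus of 17 members named after odd by the nearest protein-coding TSS overlapped sob, and both genes encode zinc finger proteins of the odd-skipped family. All of its summits lay outside coding genes, and it held 16, 14 and 17 summits in the replicate lists.

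Another locus on 3L (611849 to 644318) overlapped no coding gene and held 16 members, all outside coding gene bodies. Its strongest summit lay 756 bp from a TSS of the noncoding RNA gene lncRNA:CR43337, and the nearest protein-coding TSS was that of Reg-2, at 14991 bp. The locus holds mir-ban, the gene of the growth-promoting microRNA bantam. The strongest summit had relative signals of 15.3, 12.5 and 16.3, and the replicate lists had 16, 14 and 16 summits. Transcription factor genes made up several of the remaining loci. All 16 members of the shn locus lay inside shn, a zinc finger gene of Dpp signalling, and all 15 of the Mnt locus lay inside Mnt, a gene of the Myc network. The locus of psq and lola, both genes for BTB-domain transcription factors, held 15 members, 6 of them at promoters. The loci of bves, of the Popeye family, and Samuel held 14 members each.

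The 10 members of highest pooled signal were all found in all 3 replicate lists. So were all 267 members among the 725 reproducible peaks of highest signal, and 97.6% of the other peaks there. The strongest lay 176 bp from a TSS of rdgB, a phosphatidylinositol transfer protein gene of photoreceptors, with relative signals of 108, 62.3 and 47.8 in replicates 1, 2 and 3. It had exactly 4 other summits in the reproducible list and 3, 4 and 2 around it in the replicate lists, so it met the rule in replicate 2 only. An intronic member of ush, which encodes a partner of GATA factors, had 57.2, 51.4 and 64.1, and lay 1369 bp from a TSS of the zinc finger gene cbt. The spread at rdgB was wide, and at ush the 3 replicates lay close together. An intronic member of CG32772 reached 67.3, 45.7 and 47.2. The noncoding RNA gene lncRNA:CR44619 held 2 of the 10, at 71.5, 41.4 and 41.7 and at 53.7, 40.7 and 45.6. The promoter member of larp, an RNA-binding protein gene, had 49.9, 42.8 and 57.9. The others were an exon of lncRNA:CR46035 inside osa (50.1, 39.5 and 47.5), HmgZ, for a high-mobility-group chromatin protein (60.5, 38.0 and 38.2), the promoter member of scb, for an integrin subunit (46.1, 35.7 and 39.6), and the intergenic site near CG31668 given above, which had 3 neighbours in the list of replicate 2 and so missed the rule there. Of the 10, 3 lay at coding promoters, beside 17.6% of all members and 25.8% of the members among the 725 reproducible peaks of highest signal.

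Members were spread over the chromosome arms. They made up 35.5% of the reproducible peaks on X (525 members, 85 loci) and 34.3% on 3L (563 members, 93 loci). The share was 29.2% on 3R, 29.1% on 2L and 27.6% on 2R. On chromosome 4, none of 17 peaks was a member, which allows a share of up to 17.6%. In the replicate lists X had 35.2%, 32.5% and 35.3% and 2R 28.5%, 26.03% and 26.8%, without overlap between these arms. They are the arms with the highest and, apart from chromosome 4, the lowest share. Reproducible peaks were also denser on X, with 1479 in 23.5 Mb against 1204 in 25.3 Mb on 2R. The part of peak density in these shares was not tested.

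Members and other peaks were close in base composition. The 200 bp summit windows of members had a mean GC content of 35.2%, against 42.8% in windows 500 bp to their sides. Other peaks had 35.3% at the summit and 43.3% at the sides. In the replicate lists cluster peaks had 35.8% ± 1.53 and other peaks 35.7% ± 1.502 (SD, n = 3 each), a difference of 0.0948 ± 0.0700 points (SD, n = 3; exact sign-flip permutation test, p = 0.25). Pooled candidates of lowest signal had 41.2%. The share of all reproducible peaks with each of the 15 words at the summit, both strands counted, ran from 49.9% for AAAAAA to 0.0552% for TTCCCGGAA. Between these lay AAACAA (37.7%), TTATTA (32.6%), TTTATG (23.7%), GAGAG (23.5%), TAATTA (16.2%), CACACA (14.9%), AGATAA (14.6%), CAGCTG (6.51%), AGGTCA (3.81%), CAGGTA (3.63%), TGACTCA (1.57%), CACGTG (1.49%) and TATCGATA (0.938%). Some of these words can overlap, such as TTATTA with TAATTA and AAAAAA with AGATAA.

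The word AAAAAA was present at 52.2% of members, 48.9% of other peaks and 36.4% of the windows beside members. TTATTA was present at 32.4% of members and 32.6% of other peaks, and at 19.9% of the windows beside members. The words CACACA and GAGAG were less frequent at member summits (14.9% and 24.5%) than beside them (22.3% and 28.2%). In the replicate lists the share with GAGAG differed by 1.66 ± 1.01 points between cluster peaks and other peaks, and the share with TATCGATA by -0.75 ± 0.14 points (SD, n = 3 each; exact permutation p = 0.25, and 0.417 after Benjamini-Hochberg adjustment over the 15 words). No word could pass with 3 replicates. A matched word is a description of the letters and not a shown binding site. Over all 7-letter words, those that exceeded the windows beside members most were made of A and T alone, such as AAAAAAT at 30.8% of members, 28.5% of other peaks and 17.4% of the windows beside members. These were picked after their counts were seen.

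Genes of signalling pathways overlapped the loci in larger shares than protein-coding genes as a whole. Of 13945 protein-coding genes, 529 overlapped a locus (3.79%), and the share grew with gene length: 1.83% of genes up to 2 kb, 10.4% between 10 and 20 kb, 14.6% between 20 and 50 kb and 24.8% above 50 kb. The lists below were drawn up with earlier results of these data known, and gene length differs between them, so their counts carry no test. Fewer genes of many lists counted when the TSS of the gene, and not only part of its body, had to lie in a locus: 2.84% of protein-coding genes, and 6 of 21 for the EGF receptor list, 3 of 18 for Wingless, 2 of 14 for Dpp, 3 of 49 for segmentation factors, 4 of 19 for adhesion, 1 of 12 for JAK-STAT, 1 of 13 for JNK and 1 of 9 for Hedgehog. The Hippo, Notch and insulin lists then had 5 of 14, 6 of 23 and 4 of 20. These counts took a locus as the stretch between its outermost summits, so a TSS just beyond them was not counted. A locus with a single member has no length and could hold a TSS only at its summit. In the loci of the 3 replicate lists, 3.88% ± 0.0166 of protein-coding genes overlapped a locus (SD, n = 3).

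The epidermal growth factor (EGF) receptor pathway, which patterns epithelia, had 12 of 21 genes in loci (57.1%), with a median gene length of 16.8 kb. In the loci of the single replicates the share was 42.9%, 57.1% and 42.9%. Among the ligands and their processing, spi held 2 members with a strongest relative signal of 23.1, 16.6 and 16.2 in replicates 1, 2 and 3. Krn, S and ru held 1, 4 and 2 members. The receptor gene Egfr held 2, the strongest at 9.15 ± 1.22 (SD, n = 3). The kinase gene Raf held 9 members, the strongest at 25.2, 26.02 and 37.8. Inhibitors were present as well: aos held 4 members, up to 9.27, 9.14 and 11.8, and the phosphatase gene Mkp3 held 4, up to 7.52, 5.49 and 5.29. Of the nuclear factors, the ETS activator gene pnt and repressor genes aop and cic held 7 members each, and edl, which encodes an antagonist of aop protein, held 2, with the strongest at 26.2, 19.8 and 25.5. The genes vn, sty and rho had reproducible peaks but none in a locus, and Ras85D had no peak in its body.

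The Hippo pathway restrains tissue growth, and 6 of its 14 listed genes overlapped a locus (42.9%, and 42.9% in each replicate). The upstream genes were kibra with 7 members, ds with 8 and ex with 2. The kinase gene wts held 4 members, with a strongest relative signal of 9.57, 6.15 and 6.06. Its known targets Diap1 (5 members, up to 10.4, 10.1 and 13.4) and mir-ban also lay in loci. For the Dpp pathway, the fly bone morphogenetic protein route, the share was 4 of 14 genes (28.6%). The ligand gene dpp held 4 members, the strongest at 27.9, 25.3 and 30.7. The receptor gene tkv held 6, the inhibitor gene Dad 5 and the nuclear factor gene shn 16.

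Of the Wingless list, 6 of 18 genes overlapped a locus (33.3%; 38.9%, 33.3% and 27.8% in the replicates). They were the ligand gene wg with 1 member, the receptor genes fz, fz2, fz3 and arr with 5, 6, 2 and 7, and the inhibitor gene nkd with 4, up to 20.3, 11.04 and 11.4. Of the Notch list, 7 of 23 did (30.4%): the ligand gene Ser with 4 members, the processing and modifying genes kuz and fng with 2 and 1, the coactivator gene mam with 8, and 3 short neighbouring genes of the E(spl) complex with none in their bodies. The insulin list had 5 of 20 (25%), led by InR with 11 members, and included foxo, ImpL2, chrb and scyl, the last with none in its body. For JAK-STAT the count was 3 of 12, with Stat92E, Socs36E and Ptp61F. The gene ru lies inside Ptp61F, and the same 2 members count for both and thus for the EGF receptor and JAK-STAT lists. The JNK list had 3 of 13, namely puc, kay and Mmp2, and puc held a member at 21.6, 14.5 and 14.99. In the Hedgehog list 2 of 9 were in loci, the receptor gene ptc with 4 members and rdx with 8, up to 17.2, 19.2 and 22.3.

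Cell adhesion and cytoskeleton genes were in loci for 7 of 19 (36.8%): pyd with 7 members, up to 17.97, 20.1 and 25.6, Moe with 6, ena, jar, Rho1, RhoGEF64C and mew. In the circadian clock list the share was 2 of 9, namely vri with 9 members, up to 29.5, 19.0 and 18.2, and cbt. The gene cbt lies inside ush, and its 1 member counts for both and thus for the clock and segmentation lists. Ecdysone, the steroid that starts metamorphosis, was represented by 5 of 24 regulators (20.8% in the reproducible loci and in each replicate). The receptor gene EcR held 3 members at up to 2.55, 3.504 and 2.93, and its coactivator gene tai held 5, up to 16.4, 8.06 and 7.53. The nuclear receptor gene Hr4 held 3, up to 19.2, 19.97 and 22.6. Eip75B held 1 member of its 16 reproducible peaks, and gce, a juvenile hormone receptor gene, held 4. Their median gene length was 26.8 kb, and no TSS of the 24 lay between the outermost summits of a locus. The member in Eip75B nonetheless lay 19 bp from a coding TSS. The genes br, Eip74EF and ftz-f1 had reproducible peaks but no members.

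Transcription factors of segmentation and appendages were in loci for 7 of 49 (14.3%). They were ush with 18 members, bab1 with 6, bowl and inv with 5 each, grh and hth with 4 each, and sob with none in its body. Of the Polycomb and Trithorax groups 3 of 23 were, namely ph-p with a strongest member at 34.3, 32.5 and 39.6, osa and trx. The fat body list had 3 of 16 (Lsd-2, bmm and Lsd-1). Another 5 lists had 1 gene each in a locus: Diap1 of 11 for apoptosis, Fas3 of 15 neuronal, Dif of 15 immune, Mef2 of 17 muscle and Cht7 of 16 cuticle genes. None of 8 Hox genes overlapped a locus, although 5 of them had reproducible peaks. Of 6 matched small heat shock genes 3 did (Hsp22, Hsp26 and Hsp67Bc), neighbours in 1 stretch of 3L with no member in their bodies. In the loci of replicate 1 the small heat shock share was 0, against 50% in replicates 2 and 3.

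**Figure D5:**
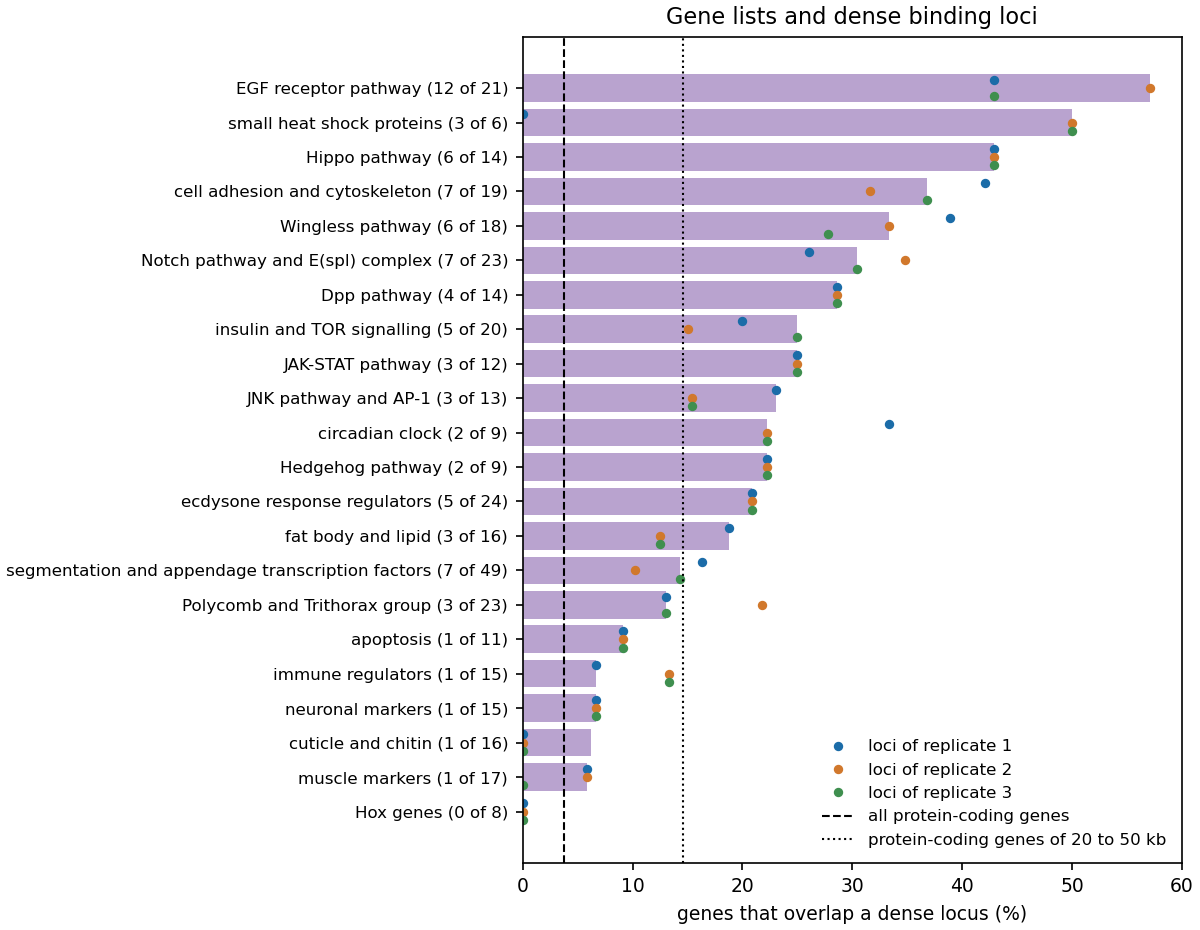
Share of the genes of each of 22 lists that overlap a dense locus (horizontal axis, %), with counts after the list names. Bars use the reproducible list, points the loci of each replicate's own list, the dashed line marks all protein-coding genes (3.79%) and the dotted line those of 20 to 50 kb (14.6%). The EGF receptor list reaches 57.1%, small heat shock genes lie at 0 in replicate 1, and no Hox gene overlaps a locus.

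By number of members in the gene body, Tet with 27 was followed by sbb (20), CG1677 and CG43658 (19 each), ush (18), shn (16), and Mnt and Tlk (15 each). All 8 are long, between 29872 and 124709 bp. Ribosomal protein genes, which are short and highly expressed, overlapped a locus in 5 of 92 cases (5.43%). This was near the 3.79% of all protein-coding genes, with 1.83% for genes up to 2 kb. In the loci of replicates 1, 2 and 3 the ribosomal share was 4.35%, 6.52% and 3.26%. With the TSS in the locus it was 3 of 92 (3.26%), beside 2.84% of protein-coding genes. Of 260 microRNA genes 24 did (9.23%), beside 4.47% of all annotated genes, and these lay in 14 loci, since microRNA genes often stand side by side. They included mir-8, mir-ban, mir-275 with mir-305, mir-279 with mir-996, and mir-310 to mir-313. In the loci of the single replicates the share was 8.08%, 5% and 6.54%. The gene of CG10669 itself was not in a locus, and the nearest reproducible summit was 52459 bp away.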

How the data were processed

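The deposited lists are peak lists in dm6, made by the authors in the narrowPeak layout. Per the file headers, each replicate's 30000 candidates came from its alignments and a control shared by all 3 replicates. Pooled alignments gave 30000 more, and the irreproducible discovery rate (IDR) step gave the reproducible list. The peak caller, the aligner, their versions and the cut-off of that step were not given in the sources used here. Deposited signal values keep the scale of the peak caller, which varied from list to list, so each was divided by the median candidate of its list. The deposited −log10 q-value was equal for all reproducible peaks and was not used to rank. The 7248 reproducible peaks proved to be the pooled candidates of highest signal, without exception. Summit offsets were used as deposited.

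Genes came from Ensembl release 115 and sequence from RefSeq Release 6, which is dm6. Summits were classed in the order promoter, exon, intron of any annotated gene and intergenic. Calculations used Python 3.11.15, pandas 2.3.3 and scipy 1.17.1. The scripts were tested on simulated lists. Differences over the 3 replicates used a two-sided exact sign-flip permutation test, whose smallest p is 0.25. Labels call the replicates biological.

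The members and gene lists were chosen with earlier results of these data known. Named were the 15 loci with the most members, the 10 strongest members and the listed genes that overlap a locus. A locus takes the name of the coding gene whose body holds most of its summits, or else of the nearest coding TSS. Alternatives covered the window, the neighbour number, list length, single replicates, and distance and window sizes.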

Additional observations from a re-analysis of the deposited data

How the results depend on the processing

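The size of the clusters follows the rule. Member peaks numbered 848 with a 5 kb window, 4046 with 20 kb, 899 with at least 6 other summits and 427 among the 50% of the list with the highest signal. Loci numbered 201, 811, 143 and 98 in these settings and 594 with at least 3 other summits. With only peaks found in both other replicates, which leaves fewer peaks, there were 1240 to 1269 members in 242 to 251 loci. The share of each replicate list that met the rule was 11.6% at 5 kb, 55.8% at 20 kb, 45.2% for at least 3 and 12.7% for at least 6 other summits, 12.1% among the strongest 50% of each list and 83.1% over all candidates. Members found in all replicate lists were 70.3% at 20 kb, 76.1% for at least 6 other summits, 41.6% among the strongest 50%, 96.96% over all candidates, 66.8% and 77.0% at distances of 100 and 500 bp, and 79.5% to 79.6% with a replicate left out, when fewer lists had to match. Coding genes with a TSS in a locus were 2.84%, against 3.79% that overlap one.

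The lower promoter share, the higher intron share, the held-out neighbour and signal differences and the difference in peaks found in all replicates kept their direction in every alternative run for them. The share over 5 kb from any TSS did not: it was -2.78 points at 5 kb and -0.716 points over all candidates, and the cause was not tested. The mean GC difference over the replicate lists stayed positive, between 0.0146 and 0.387 points. Its SD exceeded it in several settings, such as 0.0207 ± 0.385 points at 20 kb (SD, n = 3). In the reproducible list the sign was the opposite, with 35.23% in members and 35.31% in other peaks. Of 15 named loci, that of odd and that of bves had 0 members among the strongest 50% of the list. No paired analysis was possible because all samples belong to 1 group. Depth is unknown, and 3 replicates limit every test to a p of 0.25.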
